A study of Mus musculus with 5 samples.

Results

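Cassette exons, which a transcript can either hold or skip, were measured by RNA sequencing in the left ventricle of diabetic and control mice. The exons described here are of middling length, from 37 to under 300 nt, and lie between introns of at least 5000 nt on both sides. The rule uses these lengths alone, but it was set with earlier results of these data known. Of 6331 exons present in every deposited comparison 776 met the rule, in 636 genes. The STZ group was 3 samples from C57BL/6 mice given streptozotocin intraperitoneally at 70 mg/kg once a day for 5 days from 8 weeks of age. The Control group was 2 samples from C57BL/6 mice given citrate buffer on the same schedule, and the mice of both groups were 12 weeks old. Streptozotocin destroys the insulin-producing cells of the pancreas, so the animals model type 1 diabetes, and no glucose value of a mouse was analysed here. The labels do not say whether each sample is a separate animal, so the p-values measure the spread between these samples only.

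The 5 libraries are named in the deposited tables by codes found in no title of a sample. Of these, 2 stood on one side of every comparison and 3 on the other, so they were taken as Control and STZ from the group sizes alone. They are called STZ A, STZ B, STZ C, Control A and Control B here. The codes fall into 2 naming series with the same division as the groups, so the series and the treatment cannot be told apart for any value below.

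The spliceosome pairs splice sites either across a short intron or across an exon. Where the introns on both sides are long, recognition is held to run across the exon: the splice sites at its ends are recognised together, with the help of proteins bound inside it. Exons in this setting depend on their own splice sites and on such proteins, and families such as the muscleblind, CELF and RBFOX proteins regulate many alternative exons of heart muscle. The comparison asks how inclusion of these exons differed in the hearts of mice made diabetic.

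The sequences of 5 of these exons are given first, since the results below turn on them and a reader can see in them the exon end that meets the splice site. The first 3 were held more often in STZ than in Control, and the last 2 less often. Each is the whole exon, 5′ to 3′ on the transcript, in GENCODE M21 transcripts on the GRCm38 build, matched by exon length and the lengths of both flanking introns; capitals mark the last 3 bases, next to the 5′ splice site. The Ttc17 exon lies at chr2:94342627-94342797 on the minus strand, the Mbnl2 exon at chr14:120404638-120404732 on the plus strand, the Tgfbr2 exon at chr9:116158271-116158345 on the minus strand, the Uhrf2 exon at chr19:30056235-30056494 on the plus strand, and the Slc22a5 exon at chr11:53883661-53883764 on the minus strand. All 5 are coding along their whole length in that annotation.
Ttc17 exon: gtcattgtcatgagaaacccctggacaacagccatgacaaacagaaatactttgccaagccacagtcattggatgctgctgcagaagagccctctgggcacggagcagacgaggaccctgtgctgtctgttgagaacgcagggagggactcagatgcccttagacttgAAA
Mbnl2 exon: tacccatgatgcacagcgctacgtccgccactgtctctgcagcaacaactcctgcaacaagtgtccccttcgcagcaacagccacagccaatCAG
Tgfbr2 exon: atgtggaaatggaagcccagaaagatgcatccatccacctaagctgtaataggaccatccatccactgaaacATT
Uhrf2 exon: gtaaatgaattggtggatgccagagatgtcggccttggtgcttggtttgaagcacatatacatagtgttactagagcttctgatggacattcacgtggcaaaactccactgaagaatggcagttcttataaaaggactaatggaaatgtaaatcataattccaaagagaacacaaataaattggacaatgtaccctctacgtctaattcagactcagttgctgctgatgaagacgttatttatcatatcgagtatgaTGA
Slc22a5 exon: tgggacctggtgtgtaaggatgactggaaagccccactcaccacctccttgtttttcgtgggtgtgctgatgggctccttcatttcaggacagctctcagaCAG
The exons of Ttc17 and Tgfbr2 have lengths that are multiples of 3 and can be skipped without a shift of the reading frame. Those of Mbnl2 (95 nt), Uhrf2 (260 nt) and Slc22a5 (104 nt) are not, so skipping them shifts the frame.

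The 776 exons had a median length of 105 nt. The upstream introns ran from 5004 to 892220 nt with a median of 16595 nt, and the downstream introns from 5002 to 247535 nt with a median of 14172 nt. A total of 515 exons (66.4%), in 438 genes, had at least 10 informative reads in every library and were tested. Informative reads are those that fit only the isoform holding the exon or only the one skipping it. The other 261 had a median of 31 informative reads over all libraries together, and 104 of them had none in some library. Some exons overlap: the 515 tested exons form 494 clusters of exons that share bases.

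The make-up of the tested exons is given beside that of other tested exons, as a description without a test. Their length was a multiple of 3 in 187 of 515 (36.3%), against 44.0% of mid-length exons with 1 long intron, 45.5% of those with none and 45.7% of all 4769 tested exons. Of the 459 matched to an annotated exon, 273 (59.5%) were coding throughout, against 61.1%, 70.5% and 67.3% in the same order. A coding exon whose length is not a multiple of 3 changes the reading frame when it is skipped, and such exons were the larger part here: 44.0% of the coding exons were multiples of 3, against 52.6% of all tested coding exons. The median GC content was 48.4%, against 48.7% with 1 long intron and 51.0% with none. The last base of the exon was G in 77.6%, against 79.5% of all tested exons, and the last bases were AG in 54.9%, against 55.3%.

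**Figure D1:**
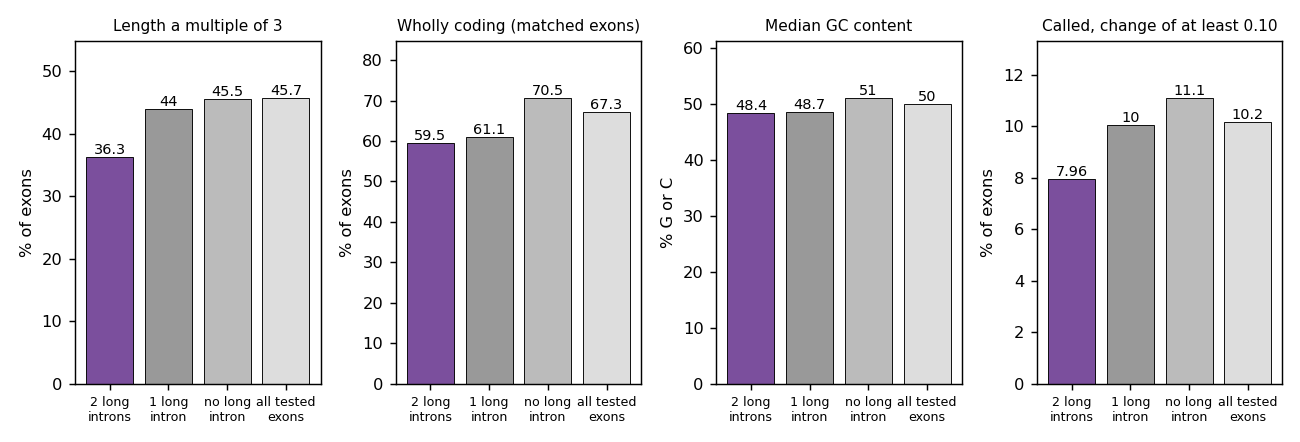
Share of tested exons with a length that is a multiple of 3, share wholly coding among matched exons, median GC content and share of exons called changed by at least 0.10 in Psi, for mid-length exons with both introns long (purple), with 1 long intron, with no long intron, and for all tested exons (greys). Exons between long introns stand lowest in all 4 panels, at 36.3%, 59.5%, 48.4% and 7.96%.

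Psi, the unit of inclusion, is the proportion of transcripts with the exon among those with or without it, as the authors estimated it in each library. Most tested exons between long introns were held in most transcripts in every library. The median Psi was 0.80, 0.82 and 0.80 in STZ A, STZ B and STZ C, against 0.87 and 0.89 in Control A and Control B. Psi reached at least 0.9 in 39.6%, 38.1% and 35.7% of the exons in the STZ libraries, against 45.4% and 49.9% in the Control libraries. All STZ libraries were thus below both Control libraries, and the same order stood in all tested exons, with medians of 0.82, 0.81 and 0.80 in STZ and 0.86 and 0.88 in Control. The median change per exon (mean Psi in STZ minus mean Psi in Control) was small, at −0.0117, against −0.01 over all tested exons. Psi was lower in STZ for 322 exons, higher for 172 and equal for 21, so 62.5% were lower, against 59.8% of all tested exons.

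Level went with what the annotation says of the exon. The 273 coding exons had a median Psi of 0.90, 0.89 and 0.88 in the STZ libraries, against 0.92 and 0.94 in the Control libraries. The 123 exons that no coding sequence covers had 0.40, 0.47 and 0.46 in STZ, against 0.49 and 0.55 in Control. The 56 with no annotated match were mostly skipped, at 0.12, 0.125 and 0.105 in STZ against 0.04 and 0.08 in Control.

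Depth differed between the groups. The median tested exon had 98, 78 and 77 informative reads in the STZ libraries and 124 and 158 in the Control libraries, so Psi is less precise in STZ. Reads that fit neither isoform made up a median of 61.4%, 61.3% and 60.3% of an exon's reads in STZ, against 58.1% and 57.1% in Control. Over all tested exons that median was 52.1%, 52.4% and 52.7% in STZ and 53.4% and 52.3% in Control, with no such gap between the groups. The part of depth and of these reads in the changes of Psi was not tested. Of 9 cardiomyocyte markers 5 had a cassette exon, and their summed reads came to 46426 to 48358 for each 1000000 event reads in STZ, against 90622 to 90975 in Control, the gap coming mostly from Pln at 16453 to 21464 in STZ and 58967 to 59253 in Control. The 5 did not move together. Like Pln, Tnnt2 was lower in STZ, at 14197 to 16399 against 17301 to 18866 in Control. Ryr2 was lower as well, at 6.15 to 24.9 in STZ against 39.1 to 50.6 in Control. Ldb3 was higher, with 2195 to 2290 in STZ and 1770 to 1897 in Control. Ttn overlapped, at 10382 to 12420 in STZ and 11321 to 12132 in Control. The endothelial marker Pecam1 was higher in STZ, at 1256 to 2166 against 563 to 639 in Control, and was the only 1 of 5 with an exon. Smooth muscle markers (3 of 5 with an exon) summed to 794 to 996 in STZ and 2664 to 2786 in Control, which followed Smtn alone (619 to 769 in STZ and 2545 to 2684 in Control). Myh11 went the other way, with 111 to 181 in STZ and 49.6 to 56.4 in Control, and Cald1 had 64.7 to 72.3 in STZ and 52.4 to 62.5 in Control. The skeletal muscle marker Acta1 had 8.82 to 27.8 in STZ and 151 to 179 in Control. The fibroblast marker Postn had 5.71 to 23.4 in STZ and 21.1 to 34.9 in Control. The leukocyte markers with an exon (2 of 4) summed to 29.7 to 66.4 in STZ and 37.3 to 44.7 in Control. They moved in opposite directions: Cd68 had 25.9 to 61.6 in STZ and 23.7 to 23.8 in Control. Ptprc had 3.85 to 11.1 in STZ and 13.6 to 20.9 in Control. No marker with an exon was at 0. In bulk tissue, fewer cells of a type and less RNA per cell cannot be told apart, and the part of these shifts in the results was not tested.

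In a linear model on logit Psi fitted across all 4769 tested exons (limma, two-sided, with Benjamini-Hochberg adjustment over all of them), 60 of the 515 exons between long introns passed an adjusted p of 0.05, 18 higher and 42 lower in STZ. That is 11.7%, and the background over all tested exons was 15.0%, with 4.84% higher and 10.1% lower. With Psi also required to differ by 0.10 or more, 41 exons in 39 genes were called, 10 higher and 31 lower, or 7.96% against a background of 10.2%. These 41 are the exons called changed below. By direction the background was 3.06% higher and 7.11% lower. Mid-length exons with 1 long intron were called in 97 of 967 cases (10.03%) and those with no long intron in 306 of 2763 (11.1%). The share between long introns was thus under that of the other exons, with falls outnumbering rises in each class, and this difference was not tested. Exons between long introns instead had the largest share among exons with 982 to 35340 informative reads over all libraries. There the share was 14.5% between long introns, 11.5% with 1 long intron and 12.0% with none.

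A change of 0.20 or more was found in 27 of these 41, 7 upward and 20 downward. The groups overlapped in none of the 41, while over all 515 tested exons they did not overlap in 210 (40.8%; 63 higher and 147 lower in STZ), against a background of 42.9% (14.1% higher and 28.8% lower). The count fell with each library left out, to 26, 18 and 17 exons without STZ A, STZ B and STZ C. Leaving out a Control library left only 1 in that group. Shares over all tested exons are not given for libraries left out or for the change of 0.20. These counts therefore do not set the exons between long introns apart. The call held whichever library was left out for 8 exons, and it was lost with each of the 5 for 10. In the authors' deposited tables, 18 tested exons differed by 0.20 or more with the same sign, at a Bayes factor no lower than 10, in all 6 library pairs. Of them 5 were higher and 13 lower in STZ, and the 18 are 3.50% against a background of 4.03% (1.36% higher and 2.66% lower). Of these 17 were also called by limma, and the exception was a 120-nt exon of Med15, a Mediator subunit, at 0.86, 0.96 and 0.97 in STZ and 0.55 and 0.58 in Control (limma adjusted p = 0.0749).

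**Figure D2:**
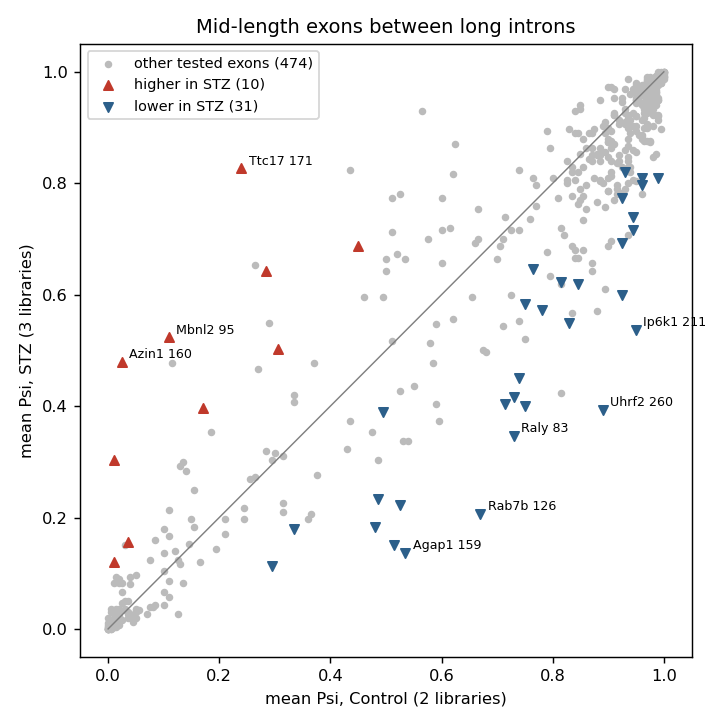
Mean Psi in STZ (3 libraries, vertical axis) against mean Psi in Control (2 libraries, horizontal axis) for the 515 tested exons between long introns; red triangles are the 10 called higher in STZ, blue triangles the 31 called lower, grey points the other 474, and the line marks equal values. Most grey points crowd near 1, and the called exons lie mainly below the line, at middle and high Control levels.

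Libraries of a group resembled each other more than libraries of different groups did. Across the 515 exons the correlation of logit Psi was 0.962 to 0.967 between STZ libraries, 0.975 between the Control libraries and 0.928 to 0.936 between groups. These exons share libraries and genes and are not independent replicates, so the values are given as a description. The mean absolute difference of Psi was 0.0479 to 0.0550 between STZ libraries, 0.0382 between Control libraries and 0.0774 to 0.0843 between groups.

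The largest rise was in Ttc17, which encodes a tetratricopeptide repeat protein. Its 171-nt coding exon (mm9 chr2:94182784-94182954), between introns of 15953 and 9574 nt, had a Psi of 0.84, 0.79 and 0.85 in STZ and of 0.27 and 0.21 in Control. Most transcripts held the exon in STZ and most skipped it in Control. Means were 0.827 ± 0.0321 and 0.24 ± 0.0424 (SD; n = 3 for STZ and 2 for Control here and below), and the limma adjusted p was 0.00856. The reads behind it were 280, 299 and 326 for inclusion against 10, 10 and 4 for skipping in the STZ libraries, and 138 and 177 against 64 and 145 in the Control libraries. The share of inclusion reads among informative reads, which is not corrected for the length of the isoforms, was 0.974 in STZ and 0.616 in Control. This call held with each library left out.

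Azin1 encodes antizyme inhibitor 1, which frees ornithine decarboxylase, the first enzyme of polyamine synthesis, from its inhibitor. A 160-nt exon of it that is not coding in the annotation (mm9 chr15:38436942-38437101) had a Psi of 0.42, 0.52 and 0.50 in STZ and of 0.03 and 0.02 in Control. The exon was nearly absent from Control transcripts and present in about as many as lacked it in STZ (adjusted p = 0.0066). Inclusion reads numbered 781, 618 and 379 against 187, 89 and 43 skipping reads in STZ, and 35 and 39 against 222 and 265 in Control, a read share of 0.86 in STZ and 0.132 in Control. A form of this exon that is 148 nt long shares most of its bases and reads, and had 0.23, 0.36 and 0.32 in STZ and 0.01 in both Control libraries (adjusted p = 0.00705). Both calls held with each library left out.

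Mbnl2 is one of the muscleblind splicing regulators of heart and skeletal muscle. Its 95-nt coding exon (mm9 chr14:120803860-120803954), whose sequence ends in the capitals CAG above, had a Psi of 0.58, 0.48 and 0.51 in STZ and of 0.10 and 0.12 in Control. The means were 0.523 ± 0.0513 and 0.11 ± 0.0141, with an adjusted p of 0.00926. Inclusion reads outnumbered skipping reads in each STZ library (1169 to 239, 721 to 183 and 655 to 137) and were outnumbered in each Control library (151 to 352 and 227 to 501). The call was lost without Control A (adjusted p = 0.0568).

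Tgfbr2 encodes the type II receptor for transforming growth factor beta, which starts the signal that drives matrix production in fibroblasts. The 75-nt exon (mm9 chr9:116067389-116067463) lengthens its extracellular part and keeps the frame. Psi was 0.69, 0.68 and 0.69 in STZ and 0.41 and 0.49 in Control (adjusted p = 0.0213), so the groups did not overlap and the Control libraries spread more widely. The call was lost without STZ A, STZ B or STZ C, at adjusted p = 0.0725, 0.0765 and 0.0817.

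The other rises described were in exons with fewer reads or lower levels. Bicd1, an adaptor of the dynein motor, had a 76-nt exon at 0.68, 0.65 and 0.60 in STZ and 0.25 and 0.32 in Control, with 10 to 30 informative reads a library. Its call (adjusted p = 0.0222) was lost with any 1 of the 5 libraries left out, at adjusted p of 0.0577 to 0.0846, and on the read share (0.0626). The groups did not overlap at this exon, which was required of every exon named as a largest rise or fall. A 54-nt exon of Pqlc1, a PQ-loop membrane protein, stood at 0.32, 0.41 and 0.46 in STZ and 0.17 in both Control libraries. Its adjusted p of 0.0475 became 0.0536 on the read share, 0.0702 with Psi clipped at 0.05, and 0.0987 to 0.188 without STZ B, STZ C, Control A or Control B. In Zfand6, an AN1-type zinc finger protein, and in Fam13b nearly all Control transcripts skipped the exon. The 161-nt exon of Zfand6 had 0.17, 0.11 and 0.19 in STZ and 0.04 and 0.03 in Control (adjusted p = 0.0361), and the 124-nt exon of Fam13b had 0.07, 0.09 and 0.20 in STZ and 0.01 in both Control libraries (0.0419). Their read shares moved further than Psi, to 0.898 in STZ against 0.286 in Control for Zfand6 and to 0.508 against 0.0156 for Fam13b. Fam13b had few reads, with 9, 5 and 22 for inclusion beside 8, 8 and 14 for skipping in STZ. In Control it had 1 and 0 beside 31 and 26. Both calls were lost with Psi clipped at 0.05 (0.0768 and 0.418) and with most single libraries left out: Zfand6 without STZ A, STZ C, Control A or Control B (0.0999 to 0.162), and Fam13b without STZ A, STZ B, Control A or Control B (0.0729 to 0.175).

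**Figure D3:**
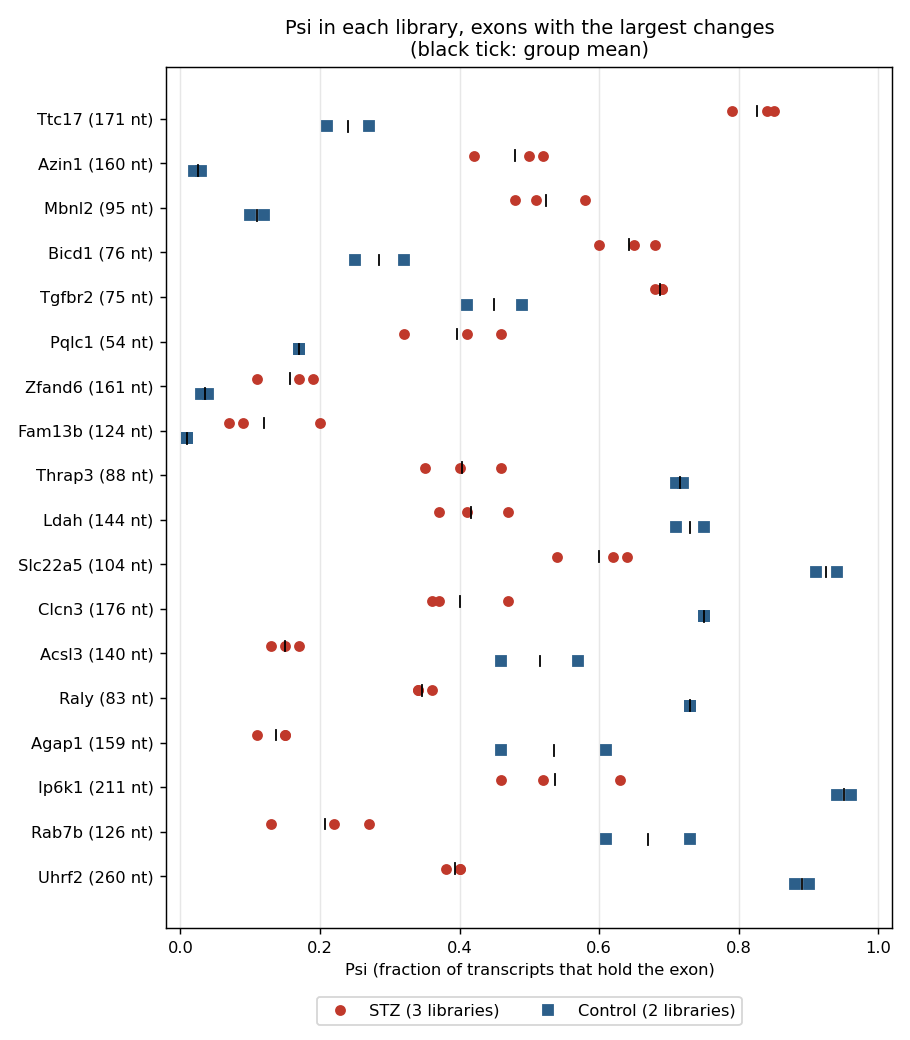
Psi of each library (horizontal axis, fraction of transcripts that hold the exon) for the exons described above and below as the largest called rises and falls, 1 row an exon; red circles are STZ libraries, drawn above the blue squares of the Control libraries, and black ticks are group means. In no row do the STZ circles and the Control squares overlap, which was a condition of their choice. The widest gaps are at Ttc17 (0.79 to 0.85 against 0.21 to 0.27) and Uhrf2 (0.38 to 0.40 against 0.88 to 0.90).

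Falls of inclusion were led by Uhrf2, a ubiquitin ligase that binds modified DNA and chromatin. Its 260-nt coding exon (mm9 chr19:30130725-30130984), between introns of 16937 and 14748 nt, had a Psi of 0.40, 0.38 and 0.40 in STZ and of 0.90 and 0.88 in Control. Most STZ transcripts skipped the exon and most Control transcripts held it. The means were 0.393 ± 0.0115 and 0.89 ± 0.0141, and the adjusted p was 0.00267. Skipping reads numbered 34, 30 and 23 in STZ beside 137, 126 and 95 inclusion reads, and 6 and 11 in Control beside 349 and 369, so the read share moved less, with 0.805 in STZ and 0.977 in Control. The call held with each library left out.

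Raly is an RNA-binding protein of the hnRNP family, and an 83-nt exon of it outside the coding sequence (mm9 chr2:154646743-154646825), between introns of 29458 and 36179 nt, had a Psi of 0.36, 0.34 and 0.34 in STZ and of 0.73 in both Control libraries. The spread within each group was small beside the gap, the adjusted p was 0.00118, and the call held with each library left out. Inclusion and skipping reads were nearly balanced in STZ (446 to 475, 397 to 387 and 340 to 349) and were 770 to 148 and 985 to 214 in Control. Thrap3, a nuclear protein with roles in transcription and splicing, had an 88-nt noncoding exon at 0.35, 0.46 and 0.40 in STZ and 0.71 and 0.72 in Control (adjusted p = 0.0233), a call lost without STZ C, Control A or Control B (0.0869, 0.106 and 0.118).

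Slc22a5 encodes the carnitine transporter of the plasma membrane, and carnitine carries long-chain fatty acids into mitochondria, the main fuel of the heart. Its 104-nt coding exon (mm9 chr11:53697163-53697266) had a Psi of 0.62, 0.64 and 0.54 in STZ and of 0.94 and 0.91 in Control, or 0.60 ± 0.0529 and 0.925 ± 0.0212. The exon was skipped in a minority of transcripts in every library, a larger one in STZ (adjusted p = 0.0164). Skipping reads were few, at 9, 10 and 11 in STZ and 3 and 11 in Control, with 57, 51 and 52 inclusion reads in STZ and 246 and 377 in Control. On the read share the means were 0.842 in STZ and 0.98 in Control, and the call was lost with any 1 library left out, at 0.0505 to 0.0708. Acsl3 activates long-chain fatty acids at lipid droplets, and its 140-nt noncoding exon had 0.17, 0.13 and 0.15 in STZ and 0.46 and 0.57 in Control (adjusted p = 0.0191). The call rests on 11 to 40 informative reads a library and was lost without STZ A, STZ B, STZ C or Control B (0.0528 to 0.0738). Ldah, a hydrolase of lipid droplets, had a 144-nt coding exon at 0.37, 0.47 and 0.41 in STZ and 0.75 and 0.71 in Control (adjusted p = 0.0233). Its read share moved less, at 0.856 in STZ and 0.953 in Control (0.0983), and the call was lost without STZ A, STZ C, Control A or Control B (0.0538 to 0.106). Slc22a5, Acsl3 and Ldah were grouped here by role after their values were seen, and no list of lipid genes was counted.

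Also among the 10 largest falls were exons of Rab7b, Ip6k1, Agap1 and Clcn3. Rab7b is a small GTPase of transport between endosomes and the Golgi. Reads of its 126-nt exon were few in STZ, at 7, 8 and 5 for inclusion and 13, 10 and 15 for skipping. Control had 41 and 62 against 10 and 11. The exon had a Psi of 0.27, 0.22 and 0.13 in STZ and of 0.61 and 0.73 in Control (adjusted p = 0.0438). That call was lost with any 1 library left out (0.0799 to 0.179) and with Psi clipped at 0.05 (0.0681). Ip6k1 makes inositol pyrophosphates from inositol hexakisphosphate, and its 211-nt coding exon had 0.63, 0.52 and 0.46 in STZ and 0.94 and 0.96 in Control (adjusted p = 0.0162). Its read share was 0.852 in STZ and 0.988 in Control, the call held only without STZ A and was lost without STZ B, STZ C, Control A or Control B (0.0529 to 0.0821), and the annotated readthrough gene Gm20662 covers the same exon. Agap1, a GTPase-activating protein for Arf proteins, had a 159-nt exon at 0.15, 0.15 and 0.11 in STZ and 0.46 and 0.61 in Control (adjusted p = 0.0251), lost with any 1 library left out (0.0533 to 0.0813). Clcn3, a chloride and proton exchanger of endosomes, had a 176-nt exon at 0.47, 0.36 and 0.37 in STZ and 0.75 in both Control libraries (adjusted p = 0.0225), lost without STZ B, STZ C, Control A or Control B (0.0711 to 0.114).

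The other 21 called exons all fell, by less than these, and the following were picked after their values were seen. Pecam1 is an adhesion receptor of endothelial cells, and its 57-nt coding exon (mm9 chr11:106533056-106533112) had a Psi of 0.22, 0.22 and 0.23 in STZ and of 0.52 and 0.53 in Control. With Raly it had the smallest adjusted p of the called exons (0.00118), and the call held with each library left out. The reads summed to 1289 for inclusion and 1504 for skipping in STZ, and to 885 and 271 in Control, so the skipping isoform led in one group and the including isoform in the other. Reads of Pecam1 itself were more numerous in STZ, as given above. A 148-nt noncoding exon of Ppp6r3, a regulatory subunit of protein phosphatase 6, had 0.46, 0.43 and 0.46 in STZ and 0.73 and 0.75 in Control (adjusted p = 0.00545). A 167-nt exon of Anapc16, a subunit of the anaphase-promoting complex, had 0.77, 0.80 and 0.82 in STZ and 0.96 in both Control libraries (0.00692). Both of these calls held with each library left out, although the Anapc16 change was not called on the read share (0.982 in STZ and 0.998 in Control, adjusted p = 0.0665).

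Stau2, which binds double-stranded RNA and moves transcripts within the cell, had a 131-nt exon at 0.18, 0.16 and 0.21 in STZ and 0.49 and 0.47 in Control (adjusted p = 0.013; 0.076 without Control A and 0.0675 without Control B). Slc39a14, a zinc importer, had a 98-nt noncoding exon at 0.57, 0.56 and 0.52 in STZ and 0.80 and 0.86 in Control (0.022), which was called only when Control A was the library left out (0.0519 to 0.079 otherwise). Tlr4, the receptor for bacterial lipopolysaccharide, had a 167-nt coding exon at 0.84, 0.86 and 0.73 in STZ and 0.99 in both Control libraries (0.0158). It had 51 skipping reads in STZ and 1 in Control, beside 693 and 464 inclusion reads, and the call was lost without STZ A, Control A or Control B (0.051, 0.0846 and 0.0867). Mcee, an enzyme of the breakdown of odd-chain fatty acids and some amino acids, had a 176-nt exon at 0.59, 0.60 and 0.56 in STZ and 0.75 in both Control libraries (0.0107), lost without Control A or Control B (0.0668 and 0.0636).

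Zfand3, an AN1-type zinc finger protein, held a pair of called exons that do not overlap, both lower in STZ. The 41-nt exon had 0.84, 0.81 and 0.78 in STZ and 0.96 in both Control libraries (adjusted p = 0.0107), and the 66-nt exon had 0.77, 0.82 and 0.73 in STZ and 0.92 and 0.93 in Control (0.0306). The first was lost without STZ B, Control A or Control B (0.0529 to 0.0678) and the second without STZ A, STZ C, Control A or Control B (0.0678 to 0.147). The 41-nt exon lies between introns of 55501 and 74472 nt, which makes it one of the few called exons deep inside long introns. Of the 41 called exons 2 had under 10 skipping reads over all libraries, so few or no reads show their skipping directly. They were a 143-nt exon of Tmem255b, with 0.78, 0.69 and 0.61 in STZ and 0.92 and 0.93 in Control but 0 skipping reads in any library beside 42 inclusion reads in STZ and 240 in Control, and a 150-nt exon of Adgrl4, an adhesion receptor of endothelium, with 0.84, 0.82 and 0.80 in STZ, 0.93 in both Control libraries and 4 skipping reads in all.

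**Figure D4:**
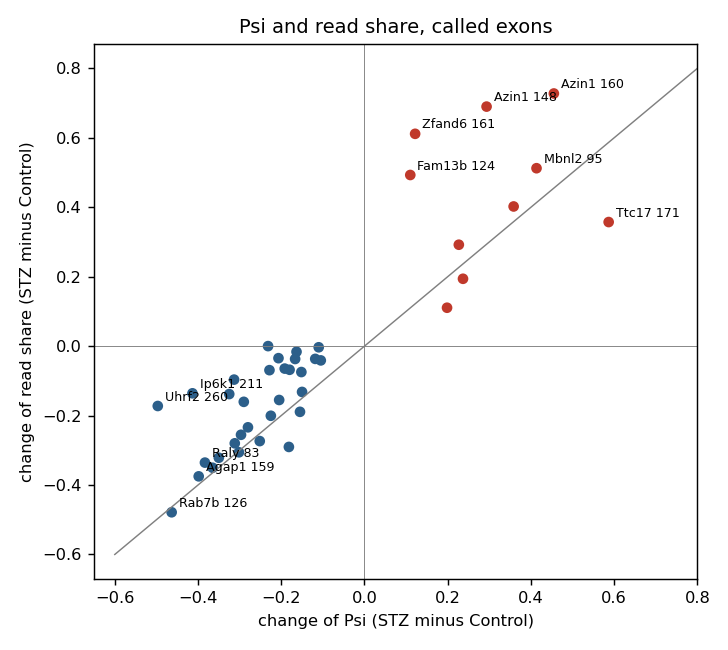
Change of the read share (inclusion reads over informative reads, STZ minus Control, vertical axis) against change of Psi (STZ minus Control, horizontal axis) for the 41 called exons, red for rises and blue for falls; the diagonal marks equal values. For 40 of the 41 both changes have the same sign, and many falls lie nearer to 0 on the read share than on Psi, among them Uhrf2 and Ip6k1.

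Called on Psi and also on the read share in the same direction were 28 of the 515 exons, 7 higher and 21 lower in STZ, or 5.44% against a background of 6.56% (2.03% higher and 4.53% lower). These 28 include Ttc17, Azin1, Mbnl2, Tgfbr2, Uhrf2, Raly, Slc22a5, Pecam1 and Stau2 among the exons described. Bicd1, Pqlc1, Ldah and Anapc16 are not among them.

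Called exons made up a smaller share where the introns were longer, which was not tested as such. Where the shorter of the introns measured 5000 to under 10000 nt, 26 of 276 tested exons were called (9.42%), 8 higher and 18 lower in STZ. From 10000 to under 20000 nt there were 10 of 146 (6.85%), 2 higher and 8 lower, and from 20000 nt up there were 5 of 93 (5.38%), all 5 lower. The class with the shortest introns had a median of 113.5, 94.5 and 87 informative reads in the STZ libraries and 144 and 173.5 in Control, the middle class 84, 68.5 and 58 in STZ and 115.5 and 141 in Control, and the longest class 77, 70 and 65 in STZ and 98 and 142 in Control. Reads were thus fewer in both classes of longer introns than in the shortest, while the middle class was lower than the longest in STZ B, STZ C and Control B. Close to the limit of the rule, 11 of 93 exons with a shorter intron of 5000 to under 6000 nt were called (11.8%), 2 higher and 9 lower. With 4000 to under 5000 nt it was 10 of 131 (7.63%), 7 higher and 3 lower. The background was 10.2%, so across the limit itself the share was larger on the side of the longer introns.

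**Figure D5:**
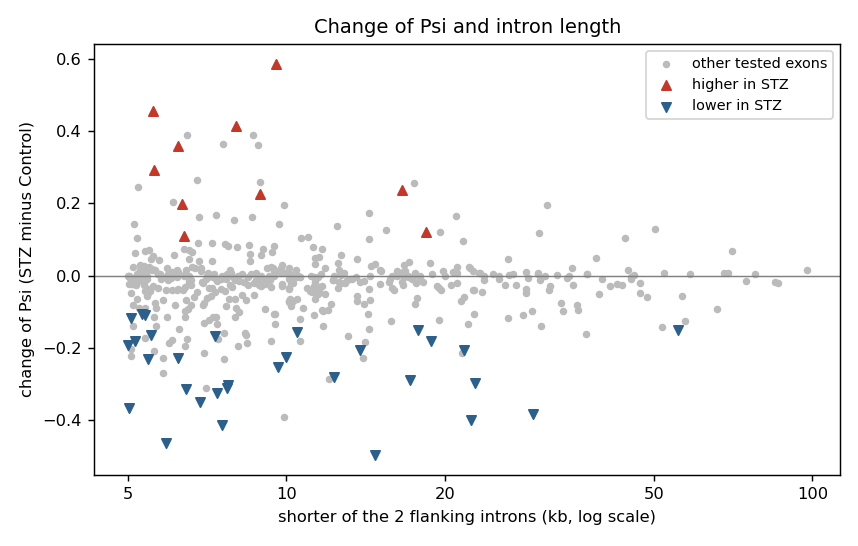
Change of Psi (STZ minus Control, vertical axis) against the length of the shorter flanking intron (kb, log scale) for the 515 tested exons; red triangles are called higher in STZ, blue triangles called lower, grey points not called. All 10 called rises lie below 20 kb, and 5 of the 31 called falls lie above it. Only 93 of the 515 tested exons lie at 20 kb or more, and a difference between rises and falls was not tested.

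The shares by exon length and frame are again a description. Called were 12 of 222 exons of 37 to under 100 nt (5.41%), 13 of 159 of 100 to under 150 nt (8.18%) and 16 of 134 of 150 to under 300 nt (11.9%). Of exons with a length divisible by 3, 11 of 187 were called (5.88%), and of the others 30 of 328 (9.15%). By annotation, 22 of 273 coding exons were called (8.06%) and 11 of 123 outside the coding sequence (8.94%). Of those partly coding 5 of 63 were called (7.94%), and of those with no match 3 of 56 (5.36%). These shares stand beside 7.96% of all 515 tested exons and the background of 10.2%. Depth went with the share of called exons: with the exons ranked by reads and cut into 3 equal sets, the set with most reads (982 to 35340 informative reads over the 5 libraries) had 25 of 172 called (14.5%), the middle set 10 of 172 (5.81%) and the lowest set 6 of 171 (3.51%). In the same read ranges, mid-length exons with no long intron were called in 12.0%, 12.3% and 8.79%, from most reads to fewest. Those with 1 long intron were called in 11.5%, 10.1% and 8.83%. Exons between long introns thus had the largest share in the range with most reads and the smallest in the lower ranges. The part of depth in the other splits was not tested.

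Exons with the deepest coverage mostly did not vary. A 74-nt exon of Ndufs4, a subunit of respiratory complex I, and a 181-nt exon of Sucla2, a subunit of succinyl-CoA ligase, had a Psi of 1 in every library, with 5 to 10 skipping reads beside at least 4665 inclusion reads a library for Ndufs4. A 61-nt noncoding exon of Ndufa12, another complex I protein, was the opposite, with a Psi of 0 in every library and 3 to 6 inclusion reads beside at least 1801 skipping reads. Exons of Reep5, which shapes the endoplasmic reticulum, Commd1, a copper and trafficking factor, Clic4 and the tetraspanin Cd9 stayed between 0.98 and 1 in every library. None of these was called. The model used Psi clipped to 0.01 to 0.99, so differences outside that range could not be called. With Psi clipped at 0.001, the Commd1 exon had a limma adjusted p of 5.79e-05. Its Psi was 0.99 in each STZ library and 1 in both Control libraries, a change of −0.01. The exception in level was a 134-nt exon of Rbpms, an RNA-binding splicing regulator of muscle, which had 0.99, 0.99 and 0.98 in STZ and 0.92 and 0.95 in Control. Its adjusted p was 0.0535, its change of 0.0517 was under 0.10, and skipping reads numbered 4, 6 and 10 in STZ and 23 and 19 in Control beside 1933 or more inclusion reads.

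Exons inside the longest introns gave little evidence of skipping. The 6 with the largest sum of both introns included an unnamed 66-nt exon on chromosome 12 (mm9 chr12:42729751-42729816), between introns of 892220 and 74825 nt, with 12 to 24 informative reads a library and 0 skipping reads. Exons of St6galnac3 (195 nt), Pard3b (172 nt), Ube2e2 (51 nt) and 9530026P05Rik (93 nt) likewise had 0 skipping reads in every library. Psi of the St6galnac3 exon nevertheless ran from 0.72 to 0.92 in STZ and from 0.68 to 0.97 in Control, on 28 to 60 informative reads a library. A 152-nt exon of Fars2, the mitochondrial phenylalanyl-tRNA synthetase, had 980 to 1583 inclusion reads and a Psi of 0.98 to 1. None of the 6 was called.

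Of the splicing regulators of heart muscle on a list of 27, 5 genes had 6 tested exons between long introns. Of these 6 exons 1 was called (16.7%), beside the background of 10.2%, and their median change of Psi was −0.045. Mbnl2 rose, as described. A 152-nt exon of Celf1, which binds GU-rich RNA and counters muscleblind proteins at many exons, had 0.23, 0.22 and 0.23 in STZ and 0.32 and 0.31 in Control. Its adjusted p was 0.0135, but the change of Psi was −0.0883, the call was lost on the read share (0.206) and without Control A (0.0649) or Control B (0.0529). Values did not pass the test for a 223-nt noncoding exon of Mbnl1, at 0.88, 0.86 and 0.82 in STZ and 0.89 and 0.87 in Control (0.485), nor for a 43-nt exon of Rbfox2, at 0.69, 0.89 and 0.85 in STZ and 0.87 and 0.93 in Control (0.435). The groups overlap in both.

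Other lists held few of these exons, and their counts of called exons stand beside the background of 10.2%. None of 13 tested exons of transcription and chromatin genes was called, among them a 92-nt exon of Nfix (0.957 in STZ and 0.98 in Control) and a 129-nt exon of Nfia (0.82 and 0.845). None of 9 of the cytoskeleton and adhesion genes was, including an 80-nt exon of Palld (0.797 in STZ and 0.86 in Control), nor any of 8 of trafficking genes, including a 159-nt exon of the fission receptor Mff (0.74 and 0.715). None of 4 exons of kinase and phosphatase genes was called, with Fyn (70 nt) at 0.88 in STZ and 0.935 in Control and Ptk2 (155 nt) at 0.25 and 0.155. Of 6 exons of small GTPase regulators 1 fell, in Agap1, and a 171-nt exon of Asap1 had 0.43, 0.43 and 0.35 in STZ and 0.56 and 0.62 in Control (adjusted p = 0.0592). Of 3 of channels and transporters 1 fell, in Slc39a14, and Uhrf2, described above, is a gene of the ubiquitin system.

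The 261 exons with too few reads to be tested had a median Psi of 0.48 in STZ and 0.475 in Control, and 49.0% had a length that is a multiple of 3. Of them 2 passed the difference of 0.20 and the Bayes factor of 10 in all 6 pairs of the authors' deposited tables, a 62-nt exon of Scaf8, which binds RNA polymerase II, at 0.12, 0.08 and 0.04 in STZ and 0.45 and 0.48 in Control, and a 107-nt exon of the kinase Sgk3, at 0.11, 0.28 and 0.33 in STZ and 0.87 and 0.69 in Control. The groups do not overlap in either. Neither was tested here.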

How the data were processed

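Left ventricle RNA of STZ and Control mice was sequenced, handled with CASAVA 1.8.2 and aligned with TopHat to mm9, as the submitters' processing notes list. The 6 deposited tables hold MISO comparisons of cassette exons, each of 1 library against another, per the file headers. For MISO, neither version nor event annotation is given in the sources used here. Psi, a fraction, was deposited by the authors as a posterior mean rounded to 2 decimals. Reads are deposited by the authors as counts in 4 classes per exon and library, and the difference of Psi and the Bayes factor, a ratio of evidence, are the authors' values for each pair. Another 36 value columns per library were not used, and a library's values were the same in every table (0 differences).

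Psi was clipped to 0.01 to 0.99, put on the logit scale and compared with limma 3.58.1 (R 4.3.3; two-sided, empirical Bayes, prior variance following log2 mean informative reads) in all exons with at least 10 informative reads in every library, with Benjamini-Hochberg adjustment over 4769 exons. The read share was tested the same way with 0.5 added to each read class. The script was tested on simulated data. Libraries had 12692236 to 14913419 event reads in STZ and 17154734 to 20963751 in Control, of which the exons between long introns took 11.1% to 11.7% and 9.99% to 10.04%. Counting error alone limits Psi at low reads, and no interval is given.

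The members and gene lists were chosen with earlier results of these data known. Named exons are the 10 largest rises and 10 largest falls among called exons with no overlap between the groups, 1 per cluster of overlapping exons (9 rises met this), the 8 with most reads, the 6 with the longest introns, heart splicing factors, and 2 per gene list. Others are said to be chosen after their values were seen. Some exons that this rule names are not reported here. Coordinates are mm9, 1-based, from the tables. Gene names come from the exon and intron lengths matched to GENCODE M21 (664 of 776 exons), by the tables, by the skipping junction or by an overlapping exon, and 11 had no name. The match gave the tables' own gene in 97.7% of 3193 exons of the series. Coding status, GC content and sequences come from GENCODE M21 transcripts (GRCm38) through that match. Whether counting used strand is not given in the sources used here. The alternatives were other read minimums, clips, variance trends, the read share, longer introns, 1 exon per cluster and leaving out each library.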

Additional observations from a re-analysis of the deposited data

How the results depend on the processing

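Counts of called exons moved with the libraries and with the measure. The median change of Psi ran from −0.0167 to −0.01 over the settings, and the median change of the read share was −0.00435. At an adjusted p of 0.05 alone, the 60 called exons became 35 with Psi clipped at 0.05, 26 to 39 with 1 library left out (26 without Control A, 29 without Control B, 39, 34 and 33 without STZ A, STZ B and STZ C), and 26 with both introns of at least 10000 nt, where fewer exons enter. With a change of at least 0.10, the 41 became 27 on the read share in place of Psi, 11 to 26 with 1 library left out, and 15 with both introns of at least 10000 nt. The 18 exons that passed the authors' values became 30 at a difference of at least 0.10, 20 to 25 with the pairs of 1 library left out, and 6 with both introns of at least 10000 nt. Apart from the smaller number of exons or samples, the cause was not tested. Chosen after seeing the data were the requirement of calls on both measures (28) and of at least 10 skipping reads over all libraries (39). Of 389 alternative values for 36 named exons, 313 stayed on their side of the threshold, 72 dropped below it, 4 passed it and 12, in 7 exons, changed sign, 0 of them called before or after the change. The values that stayed include those of named exons not called in the main fit, such as the ones with most reads or the longest introns. Only exons called in the main fit could drop below the threshold, so the 72 belong to these. No paired analysis was possible because the columns carry no replicate number and their codes match no sample title. The share of called exons differed with depth, whose part was not tested. With a change of at least 0.10, 6 of 171 exons with 71 to 340 informative reads over all libraries were called. With 982 to 35340 reads it was 25 of 172. Mid-length exons with no long intron were called in 8.79% and 12.0% in the same ranges.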
